A study of Mus musculus with 8 samples.

Results

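HOX cluster genes encode homeodomain transcription factors that stand side by side in 4 genomic clusters, HOXA on mouse chromosome 6, HOXB on chromosome 11, HOXC on chromosome 15 and HOXD on chromosome 2. Members were taken as every probe set whose symbol in the platform annotation was Hox followed by a cluster letter and a paralogue number. This gave 33 of the 19505 genes measured, each with 1 probe set, with 8 genes of HOXA, 9 of HOXB, 9 of HOXC and 7 of HOXD. RefSeq lists 39 genes under such names, and those beyond the 33 were not analysed here.

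Genes at the 3′ end of a cluster carry low paralogue numbers and are used towards the head of the embryo, and genes at the 5′ end carry high numbers and are used towards the tail. Genes of the same number in different clusters are copies of each other. In the female tract the posterior genes pattern the Müllerian duct, with Hoxa10 used in the uterus, Hoxa11 in the uterus and towards the cervix, and Hoxa13 in the cervix and upper vagina. In the adult mouse uterus Hoxa10 and Hoxa11 are needed in the stroma for implantation and decidualization.

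The exposed group comprised 4 wildtype C57BL/6J mice that breathed an electronic cigarette aerosol for 3 hours a day, made from unflavoured liquid holding 24 mg/mL nicotine in vegetable glycerin and propylene glycol. The sham group comprised 4 wildtype C57BL/6J mice that breathed room air. Both groups were treated for 4 weeks (5 days in each) ahead of pairing with vasectomised males and daily thereafter, and the uterus was taken on day 4.5 of pseudopregnancy, so that no embryo was present in either group. No group breathing nicotine-free aerosol is among the samples, so nicotine and carrier cannot be told apart. The sources used here do not give the animals' age or the part of the uterus taken. Each array held the RNA of 1 mouse, and the question put to these uteri is how HOX transcript levels after aerosol compare with those after room air near the time of receptivity.

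Values are log2 expression, group values are means ± SD over 4 mice, and differences are exposed minus sham with the standard error of limma's fit. A probe set's value also depends on its probes, so levels were not ranked between genes. Labelled uterine tissue carried its defining transcripts on every array. The progesterone receptor Pgr lay at 10.42 to 11.34 in exposed and 10.29 to 10.78 in sham mice, the smooth muscle myosin Myh11 at 11.19 to 11.67 in exposed and 11.37 to 11.85 in sham mice, and the array median was 7.08. The 9 measured markers of vagina and cervix, of 10 listed, all had sham means below the array median. Their mean was 5.24 to 5.29 in exposed and 5.14 to 5.30 in sham mice. Within this list 2 (22.2%) had an unadjusted p under 0.05 in limma, against 5.42% of all probe sets. Trp63 was higher after exposure (0.60 ± 0.22) and Krt13 lower (-0.40 ± 0.17), each with overlapping groups and an adjusted p of 0.838.

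Promoter windows are shown for 4 HOXA genes on which the results turn, a pair whose means were higher after exposure and the pair required for uterine function. Each runs 5′ to 3′ from 250 bases before to 50 bases after an annotated start, on the minus strand of GRCm38.p6, from RefSeq. Capitals mark matches, on either strand, to the promoter box CCAAT, to the retinoic acid receptor core AGGTCA, to the progesterone receptor core AGAACA, to the core promoter box TATAAA or to the joint HOX and PBX site TGATNNAT, and no marked match overlaps another. Hoxa10 has a pair of annotated starts, and the downstream one is shown.
Hoxa6, chr6:52208623-52208922: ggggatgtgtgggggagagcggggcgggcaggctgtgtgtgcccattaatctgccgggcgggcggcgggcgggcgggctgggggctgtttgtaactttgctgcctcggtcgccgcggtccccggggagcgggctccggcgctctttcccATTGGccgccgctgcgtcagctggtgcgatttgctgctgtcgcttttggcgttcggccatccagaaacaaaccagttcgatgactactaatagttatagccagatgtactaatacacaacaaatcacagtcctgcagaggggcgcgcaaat
Hoxa5, chr6:52204538-52204837: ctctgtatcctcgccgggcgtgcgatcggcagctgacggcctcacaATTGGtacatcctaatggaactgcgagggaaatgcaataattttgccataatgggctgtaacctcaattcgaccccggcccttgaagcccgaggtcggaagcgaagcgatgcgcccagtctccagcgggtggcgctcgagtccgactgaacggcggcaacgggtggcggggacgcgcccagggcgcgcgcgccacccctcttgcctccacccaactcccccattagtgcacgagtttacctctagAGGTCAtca
Hoxa10, chr6:52234890-52235189: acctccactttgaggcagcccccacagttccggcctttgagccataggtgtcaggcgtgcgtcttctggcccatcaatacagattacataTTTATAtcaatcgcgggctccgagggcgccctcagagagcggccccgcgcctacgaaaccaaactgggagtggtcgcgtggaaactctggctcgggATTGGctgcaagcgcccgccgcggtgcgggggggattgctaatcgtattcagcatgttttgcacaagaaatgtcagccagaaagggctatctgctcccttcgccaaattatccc
Hoxa11, chr6:52245761-52246060: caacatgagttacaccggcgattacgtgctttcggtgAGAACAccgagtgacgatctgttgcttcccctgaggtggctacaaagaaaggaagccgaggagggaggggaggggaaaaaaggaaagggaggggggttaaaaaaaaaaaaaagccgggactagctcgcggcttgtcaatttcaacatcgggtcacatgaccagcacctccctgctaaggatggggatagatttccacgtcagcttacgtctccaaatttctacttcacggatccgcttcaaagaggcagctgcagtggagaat

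Of the 33 genes, 17 had at least 1 window in the RefSeq table, 19 windows in all. CCAAT stood in 13 of the 19, against 37.4% of the 32851 windows of all genes, and of the 4 shown it was found in those of Hoxa6, Hoxa5 and Hoxa10. AGGTCA was found in 4 of the 19 (16.3% of all windows), among them Hoxa5. AGAACA was found in 1 of the 19, that of Hoxa11 (19.0% of all windows), TATAAA in 3 (13.6%), among them the Hoxa10 window shown, and TGATNNAT in 4 (8.85%) and in none of the 4 shown. The HOX windows held a median of 20 CpG dinucleotides against 7 in all windows. These are matches of letters only. The TATAAA match in the Hoxa10 window lies on the opposite strand, with its first base at -160 from the annotated start.

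Across the 33 HOX genes, differences between exposed and sham uteri were small and none passed the test. Means were higher after exposure for 17 genes and lower for 16, with a median difference of 0.01 (-0.001 over all 19505 genes) and a range of -0.18 for Hoxa11 to 0.31 for Hoxa5. Of the 33 genes, 28 (84.8%) lay within 0.2 of 0, against 81.4% of all genes. No HOX gene had an adjusted p under 0.05 in limma, with Benjamini-Hochberg correction across the 22206 probe sets (0 of 33, where 0% of all probe sets passed), and the adjusted p of the members ran from 0.838 to 0.996.

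At an unadjusted p under 0.05 in limma there were 4 HOX genes (12.1%), against 5.42% of all probe sets. All 4 had higher means in exposed mice, Hoxa6, Hoxa3, Hoxa5 and Hoxc13, where 2.91% of all probe sets were higher at that p, and 0 had lower means, where the share over all probe sets was 2.5%. The count was 1 (3.03%), Hoxa6 alone, without sham mouse 2 (3.27% of all probe sets in that fit), without sham mouse 3 (4.07%) or without exposed mouse 2 (3.69%), and 2 (6.06%) without exposed mouse 4 (3.87%). Leaving out exposed mouse 1 gave 5 (15.2%), against 11.5% of all probe sets. These were Hoxa4, Hoxa5 and Hoxa6 with higher exposed means, and Hoxa11 (-0.287) and Hoxd11 (-0.225) with lower ones. Hoxa3 and Hoxc13 were not among them. The groups did not overlap for 1 of the 33 genes (3.03%), again Hoxa6, against 2.73% of all probe sets (1.38% higher and 1.35% lower). With fewer mice the share without overlap was larger over all probe sets as well. The count was 5 (15.2%) without exposed mouse 1, against 10.2% of all probe sets, 4 (12.1%) without exposed mouse 3, against 6.67%, and 3 (9.09%) without sham mouse 1, against 5.05%. It was 2 (6.06%) without sham mouse 4, against 6.04%, or without exposed mouse 4, against 4.63%.

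**Figure D1:**
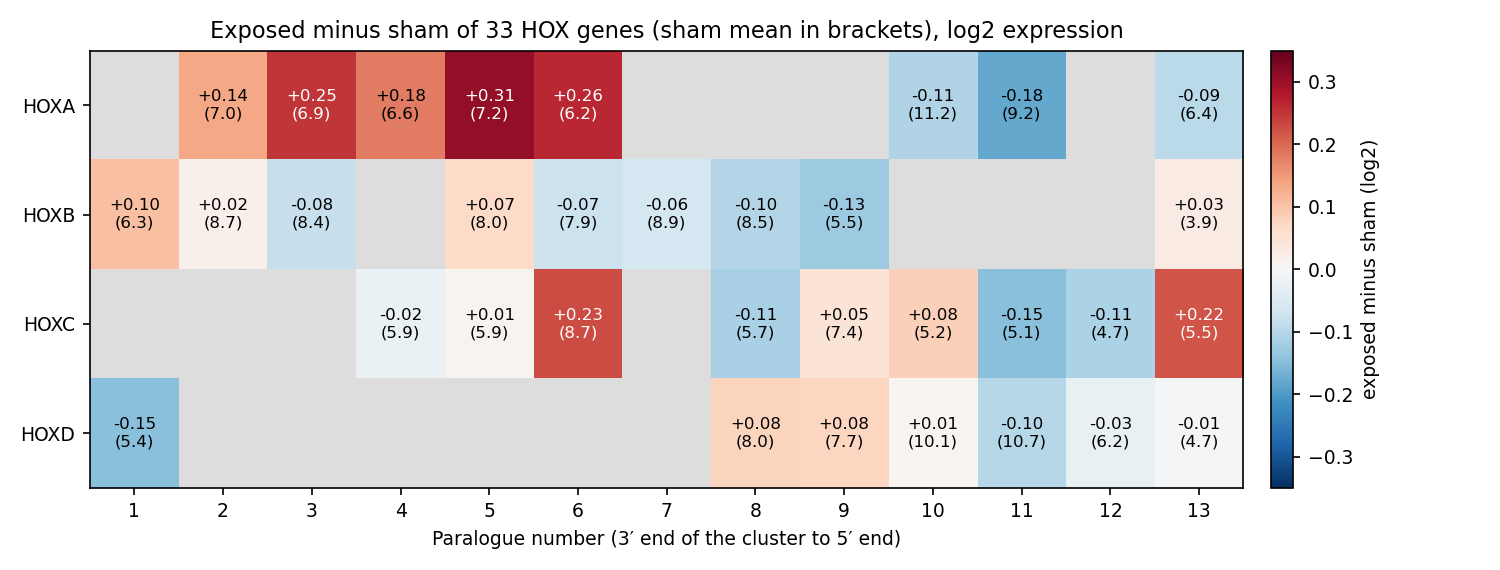
Exposed minus sham difference of each of the 33 HOX genes (colour and upper number, log2) and the sham mean (number in brackets, log2 expression), with clusters down the page and paralogue numbers across. Grey cells hold no gene or one not analysed here. HOXA numbers 2 to 6 are all red (0.14 to 0.31) and HOXA numbers 10, 11 and 13 are blue (-0.18 to -0.09). HOXB and HOXD cells lie between -0.15 and 0.10, and HOXC cells between -0.15 and 0.23, highest for Hoxc6 (0.23) and Hoxc13 (0.22).

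The HOXA cluster held 3 of those 4 genes and showed a different sign at its ends. All 5 measured genes of its 3′ part, Hoxa2 to Hoxa6, had higher means after exposure (0.14 to 0.31). All 3 of its 5′ part, Hoxa10, Hoxa11 and Hoxa13, had lower means (-0.18 to -0.09). Sham means in the 3′ part were 6.22 to 7.22, and only that of Hoxa5 lay above the array median of 7.08. Outside HOXA, paralogue numbers 1 to 8 comprised 6 higher and 7 lower genes with a median of -0.02, and numbers 9 to 13 comprised 6 higher and 6 lower genes with a median of 0.00. The difference between the ends of HOXA was not tested, and this grouping was noticed in these values. All 5 genes of the 3′ part kept a higher mean whichever single mouse was omitted, and the lowest difference was 0.06, for Hoxa2 without sham mouse 3. In the 5′ part Hoxa13 turned to 0.02 without exposed mouse 4.

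**Figure D2:**
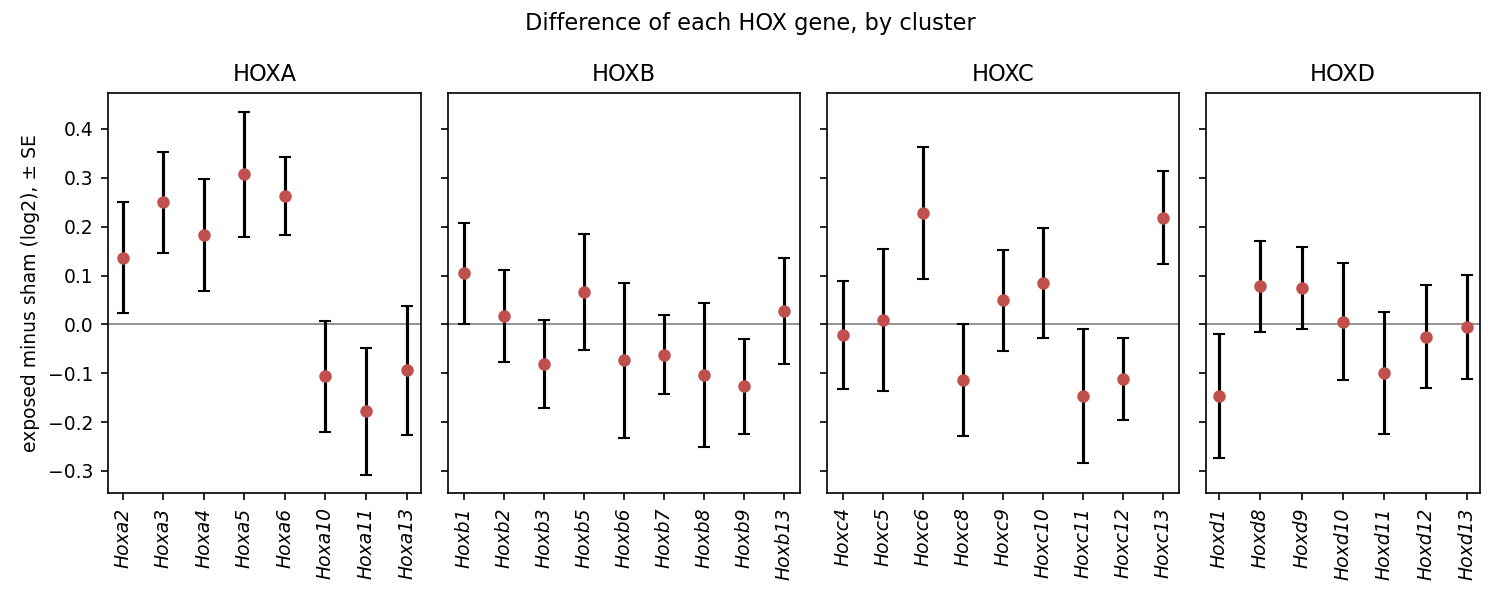
Exposed minus sham difference (log2, vertical axis) of each HOX gene, with genes of each cluster ordered from 3′ to 5′ along the horizontal axis. Points are limma's estimates and bars their SE (4 mice per group), and the 5 points from Hoxa2 to Hoxa6 lie at 0.14 to 0.31 with bars above 0, while most bars elsewhere cross 0.

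Hoxa6 had values of 6.45, 6.54, 6.49 and 6.44 in exposed mice 1 to 4, against 6.29, 6.13, 6.22 and 6.24 in sham mice 1 to 4. Every exposed value stood above every sham value, and the difference was 0.26 ± 0.08 (SE, 1.2-fold, limma adjusted p = 0.838). Its spread was small in both groups, with means of 6.48 ± 0.05 in exposed and 6.22 ± 0.07 in sham mice, both below the array median. The difference stayed between 0.23 and 0.28 whichever mouse was left out. Hoxa5, which in the mouse is needed for lung and trachea development, had values of 7.36, 7.79, 7.52 and 7.43 in exposed mice 1 to 4, against 7.38, 7.14, 6.97 and 7.37 in sham mice 1 to 4. Exposed mouse 2 was highest, 3 of the 4 exposed values lay above all sham values and exposed mouse 1 lay among them (difference 0.31 ± 0.13, adjusted p = 0.838). Without exposed mouse 2 its difference was 0.22.

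Hoxa3, which is needed for the thymus and parathyroid in the mouse, had values of 7.13, 7.23, 6.96 and 7.12 in exposed mice 1 to 4, against 6.76, 6.77, 6.81 and 7.08 in sham mice 1 to 4. Here 3 exposed values exceeded all sham values, and sham mouse 4 stood apart from the other sham mice and above exposed mouse 3 (difference 0.25 ± 0.10, adjusted p = 0.838). Hoxa4 averaged 6.78 ± 0.18 in exposed and 6.60 ± 0.14 in sham mice, and exposed mouse 1 lay within the sham range (difference 0.18 ± 0.11). Hoxa2, a hindbrain and branchial arch gene, averaged 7.13 ± 0.10 in exposed and 6.99 ± 0.21 in sham mice, and its groups overlapped, with sham mouse 4 the highest of all 8 (difference 0.14 ± 0.11). Averaged over these 5 genes, the level relative to the sham mean was 0.14, 0.34, 0.22 and 0.22 in exposed mice 1 to 4 and 0.00, -0.04, -0.12 and 0.15 in sham mice 1 to 4, so that sham mouse 4 lay above exposed mouse 1. In the RefSeq annotation the span of Hoxa3 contains Hoxa4, Hoxa5 and Hoxa6. Whether their probe sets read transcripts in common was not tested.

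**Figure D3:**
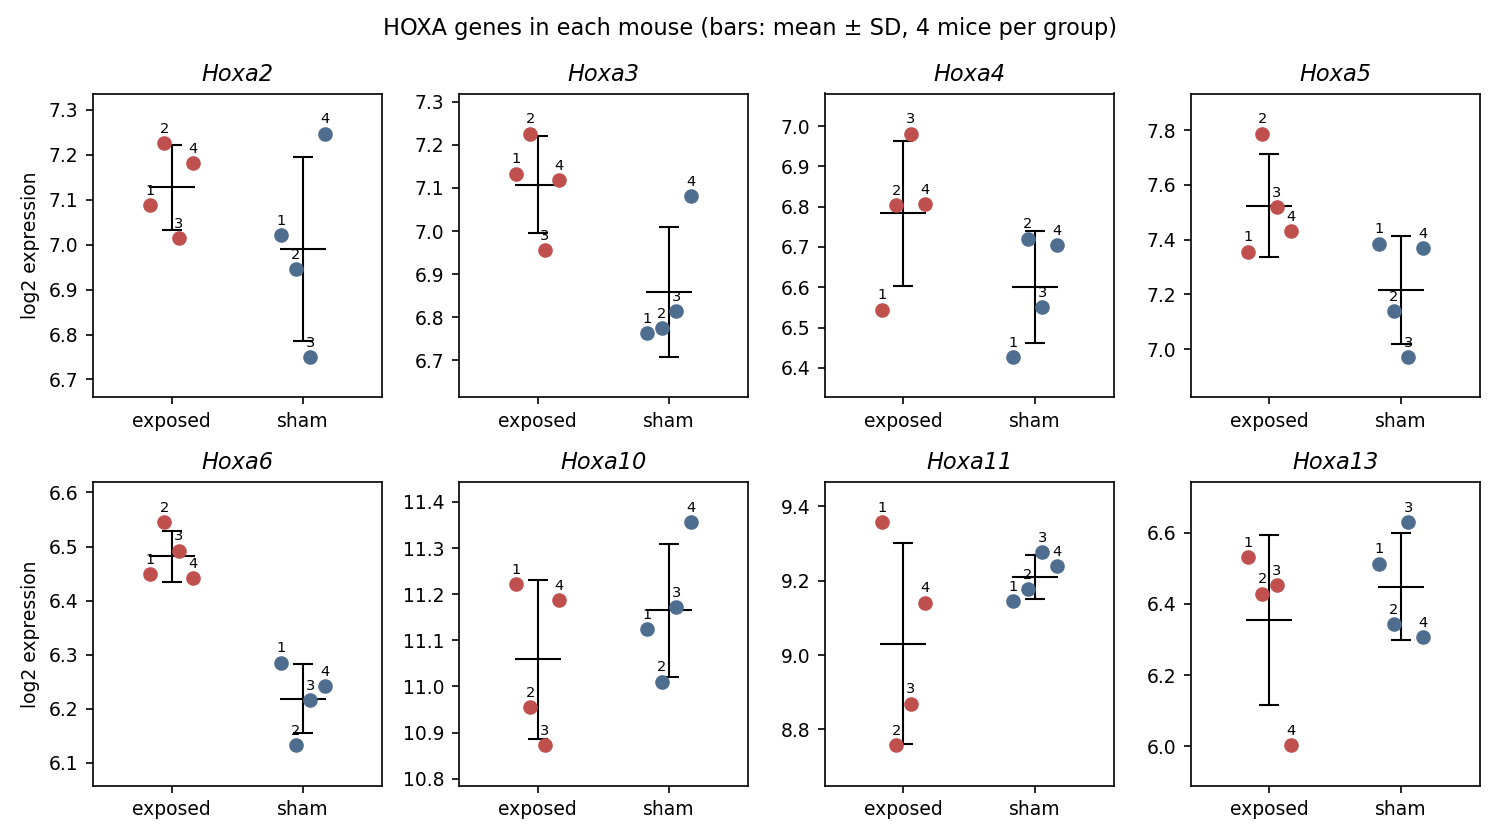
Log2 expression of the 8 HOXA genes in each mouse (vertical axes, each with its own range), exposed mice in red and sham mice in blue, with the mouse number above each point and bars for mean ± SD of 4 mice. Hoxa6 has no overlap between groups (6.44 to 6.54 in exposed and 6.13 to 6.29 in sham mice), and Hoxa11 spreads over 8.76 to 9.36 in exposed against 9.14 to 9.28 in sham mice.

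The mean over fat-cell markers was highest in exposed mice 1 and 2, and 8 of the 9 measured had a higher exposed mean, but the members did not all follow that order. The mean of 9 adipocyte markers, of 10 listed, stood 0.73, 1.09, -0.14 and 0.15 relative to the sham mean in exposed mice 1 to 4, and -0.03, -0.16, -0.03 and 0.22 in sham mice 1 to 4. Their summed linear signal ran over 511 to 1368 in exposed and 489 to 636 in sham mice. The fat-cell hormone transcript Adipoq stood at 7.10 and 6.66 in exposed mice 1 and 2, 4.24 and 4.37 in exposed mice 3 and 4, and 4.55 to 5.26 in sham mice. Cidec, Retn, Fabp4 and Plin1 were likewise highest in exposed mice 1 and 2. Pck1 was lowest of all in exposed mouse 1 (5.88) and highest in exposed mouse 4 (6.90), Plin4 in exposed mouse 1 (7.80) lay below sham mouse 4 (7.86), Lep was highest in sham mouse 3 (5.00), and Ucp1 in exposed mouse 1 (3.96) lay within the sham range. Without exposed mice 1 and 2 (left out once the marker values had been looked at) the differences were 0.25 for Hoxa6, 0.26 for Hoxa5, 0.29 for Hoxa4, 0.18 for Hoxa3 and 0.11 for Hoxa2. The part of fat cells in the levels of the 3′ HOXA genes was not tested. In bulk tissue, fewer cells of a type and less RNA per cell cannot be told apart.

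**Figure D4:**
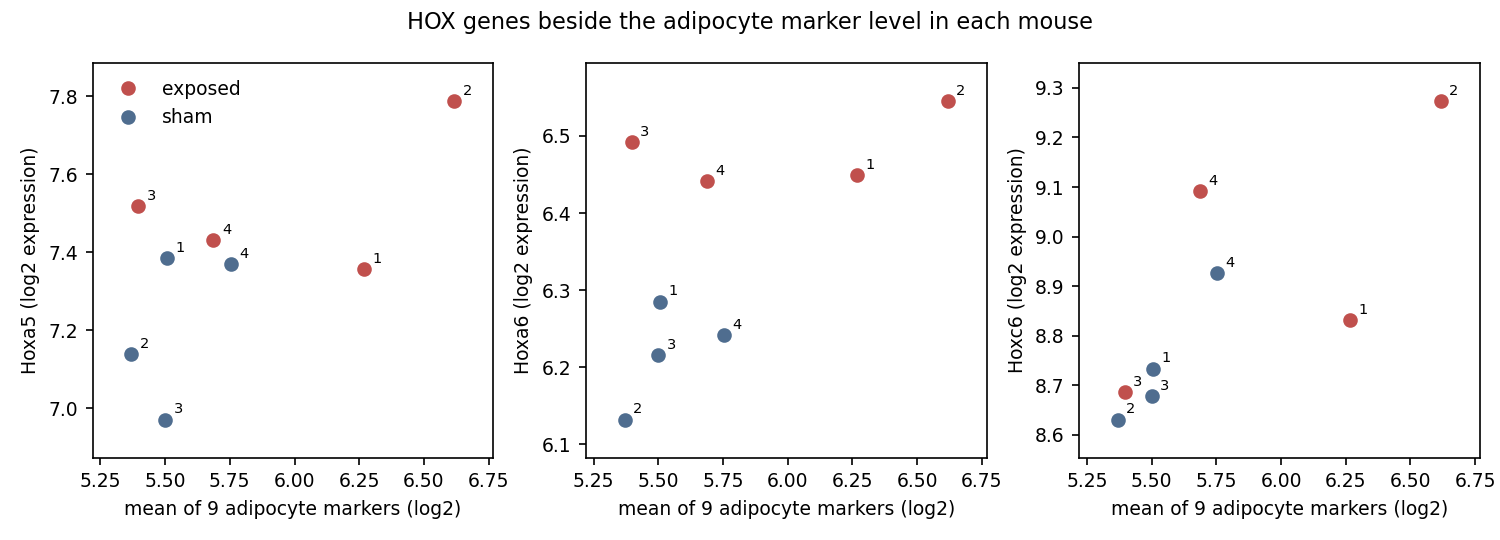
Log2 expression of Hoxa5, Hoxa6 and Hoxc6 (vertical axes) against the mean of 9 adipocyte markers (log2, horizontal axis) in each mouse, exposed mice in red and sham mice in blue with mouse numbers. Exposed mouse 2 is highest for all 3 genes and for the markers (6.62). Exposed mice 3 and 4 are at 5.40 and 5.69 on the marker axis and sham mice at 5.37 to 5.75, and all 4 exposed mice lie above the sham mice for Hoxa6.

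Of the posterior HOXA genes, Hoxa10 had values of 11.22, 10.96, 10.87 and 11.19 in exposed mice 1 to 4, against 11.12, 11.01, 11.17 and 11.36 in sham mice 1 to 4. The exposed values spanned 10.87 to 11.22 and the sham values 11.01 to 11.36, and the difference was -0.11 ± 0.11 (adjusted p = 0.877). Without sham mouse 4, and likewise without exposed mouse 3, the difference was -0.04. Hoxa11 had values of 9.36, 8.76, 8.87 and 9.14 in exposed mice 1 to 4, against 9.14, 9.18, 9.28 and 9.24 in sham mice 1 to 4. The sham values lay within 0.13 of each other, whereas exposed mouse 1 was above all of them, exposed mice 2 and 3 were below all of them and exposed mouse 4 was level with sham mouse 1 (difference -0.18 ± 0.13, adjusted p = 0.843). Without exposed mouse 1 the difference was -0.29, and without exposed mouse 2 it was -0.09. Hoxa13 had values of 6.53, 6.43, 6.45 and 6.00 in exposed mice 1 to 4, against 6.51, 6.34, 6.63 and 6.31 in sham mice 1 to 4, with exposed mouse 4 lowest and the other 7 mice mixed (difference -0.09 ± 0.13). Its sham mean, 6.45, lay below the array median.

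Hoxa11os, the RNA transcribed from the strand opposite Hoxa11, had values of 9.56, 8.85, 9.45 and 9.47 in exposed mice 1 to 4, against 9.34, 9.34, 9.69 and 9.29 in sham mice 1 to 4. It was lowest in exposed mouse 2, where Hoxa11 was lowest too, and its groups overlapped (difference -0.08 ± 0.16). The difference turned to 0.08 without exposed mouse 2 and to 0.01 without sham mouse 3. RefSeq gives the pair overlapping spans. Hoxd3os1 was dim (4.36 ± 0.19 in exposed and 4.33 ± 0.07 in sham mice), and the other 15 of the 17 listed non-coding RNAs of the clusters were not analysed here.

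HOXD, whose posterior genes shape the limbs and urogenital tract, showed differences of -0.15 to 0.08 with 3 genes higher and 4 lower. Hoxd11 had values of 10.98, 10.42, 10.51 and 10.51 in exposed mice 1 to 4, against 10.66, 10.66, 10.81 and 10.69 in sham mice 1 to 4. Exposed mouse 1 was highest of all, as for Hoxa11, and exposed mice 2, 3 and 4 were below every sham mouse (difference -0.10 ± 0.13, adjusted p = 0.893), and the difference was -0.22 without exposed mouse 1 and -0.04 without exposed mouse 2. Hoxd10 had values of 10.32, 10.22, 9.79 and 10.17 in exposed mice 1 to 4, against 10.11, 10.02, 10.12 and 10.23 in sham mice 1 to 4, with exposed mouse 1 highest, exposed mouse 3 lowest and a difference of 0.01 ± 0.12. Its sign turned without exposed mouse 1 (-0.06), exposed mouse 2 (-0.03), exposed mouse 4 (-0.01) or sham mouse 2 (-0.03). Hoxd9 had values of 7.82, 7.84, 7.75 and 7.75 in exposed mice 1 to 4, against 7.77, 7.58, 7.73 and 7.78 in sham mice 1 to 4, and the groups overlapped at a difference of 0.08 ± 0.08, which was 0.03 without sham mouse 2. RefSeq gives Hoxd10 and Hoxd11 overlapping spans.

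Hoxd1, at the 3′ end of that cluster, had values of 5.23, 5.25, 5.17 and 5.16 in exposed mice 1 to 4, against 5.19, 5.10, 5.43 and 5.68 in sham mice 1 to 4, with sham mice 3 and 4 above all exposed mice and sham mice 1 and 2 among or below them (difference -0.15 ± 0.13). Without sham mouse 4 its difference was -0.04. Hoxd8 (8.06 ± 0.10 in exposed and 7.99 ± 0.11 in sham mice) lay above the array median, and Hoxd12 (6.17 ± 0.20 in exposed and 6.19 ± 0.02 in sham mice) and Hoxd13 (4.68 ± 0.15 in exposed and 4.69 ± 0.13 in sham mice) lay below it. Hoxd12 and Hoxd13 pattern the digits, and their differences were -0.03 ± 0.11 and -0.01 ± 0.11.

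The 3 measured genes of paralogue group 11 all had lower means after exposure, Hoxa11, Hoxd11 and Hoxc11 (-0.18 to -0.10), as did both of group 12, Hoxc12 and Hoxd12. Group 10 was mixed (2 higher, 1 lower, -0.11 to 0.08), as was group 13 (2 higher, 2 lower). All 3 measured genes of group 5 had higher means (0.01 to 0.31). With so few genes per number these counts are descriptions. Exposed mice varied more among themselves than sham mice for 11 of the 15 genes numbered 9 to 13 (73.3%) and for 7 of the 18 genes numbered 1 to 8 (38.9%), against 66.0% of all genes. The SD was 0.27 in exposed and 0.06 in sham mice for Hoxa11, and 0.25 and 0.07 for Hoxd11 in the same order. For Hoxd11 exposed mouse 1 (10.982) stood apart from the other exposed mice (10.423 to 10.509). Sham mice varied more for Hoxb13, Hoxc11, Hoxc13 and Hoxd9.

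Smooth muscle markers, all 10 of 10 measured and all with lower exposed means, stood 0.00, -0.57, -0.04 and -0.23 relative to the sham mean in exposed mice 1 to 4, and 0.10, 0.03, 0.08 and -0.21 in sham mice 1 to 4. Their summed linear signal ran over 19540 to 29230 in exposed and 23760 to 30910 in sham mice. The mean of 9 stromal markers, of 10 listed, stood 0.01, -0.20, 0.05 and 0.01 in exposed mice and -0.03 to 0.07 in sham mice. Within the stromal list exposed mouse 2 was lowest for Col1a1 (9.95) and Col3a1 (11.09) and highest for Dcn (13.07), Pdgfrb (9.95) and Nr2f2 (11.79). Exposed mouse 2 was lowest for both list means, for Hoxa11 and for Hoxd11, whereas exposed mouse 3, next lowest for Hoxa11 and lowest for Hoxa10, lay near the sham mean for both. Luminal epithelium markers, 9 measured of 10 listed, stood -0.73 in exposed mouse 4 and -0.20 to -0.09 in the other exposed mice, against -0.15 to 0.23 in sham mice. Of these 9, 7 had lower and 2 higher exposed means, and 2 (22.2%) had an unadjusted p under 0.05 in limma, against 5.42% of all probe sets. Gland markers, 5 higher and 5 lower, stood -0.391, -0.301, 0.738 and 1.305 in exposed mice 1 to 4, against -0.356 to 0.262 in sham mice. The part of these cell types in the levels of Hoxa10, Hoxa11 and Hoxd11 was not tested.

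Neighbouring posterior genes of a cluster were compared across the 8 mice in 11 pairs. The levels of Hoxa10 and Hoxa11 ran together (Pearson r = 0.787, exact permutation p = 0.0190; Spearman rho = 0.714, exact permutation p = 0.0576), and the pair did not pass after Benjamini-Hochberg adjustment over the 11 (0.209 for r and 0.305 for rho). The r was 0.806 without exposed mouse 3 and sham mouse 4, the mice farthest from the median of Hoxa10, and 0.750 on deviations from the group means. Within groups of 4 it was 0.902 in exposed and 0.539 in sham mice. Hoxc12 and Hoxc13 ran in opposite directions (r = -0.711, exact permutation p = 0.0469, adjusted 0.258; rho = -0.667, exact permutation p = 0.0831, adjusted 0.305), with r of -0.569 without exposed mouse 2 and sham mouse 3 and of -0.453 on deviations from the group means. Of the 11 pairs, 0 passed after adjustment for r or for rho, and r for the other 9 lay between -0.507 and 0.496.

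**Figure D5:**
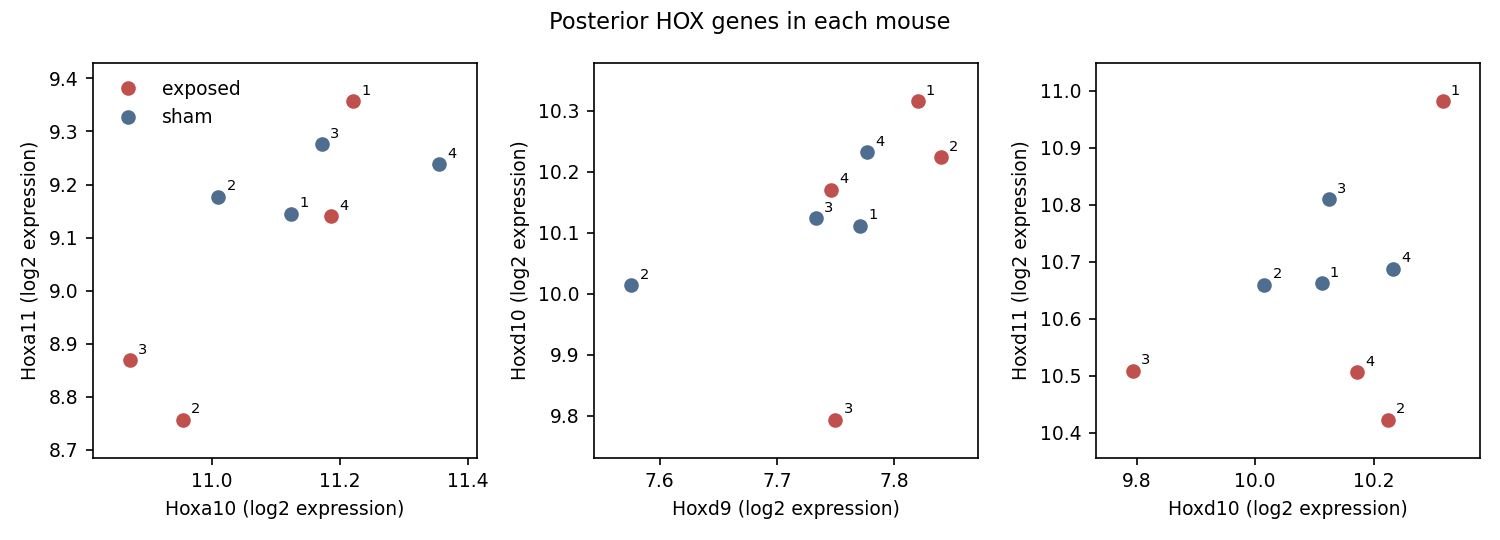
Log2 expression of neighbouring posterior HOX genes plotted against each other, 1 point per mouse with its number, exposed mice in red and sham mice in blue. In the left panel exposed mice 2 and 3 are lowest for Hoxa11 (8.76 and 8.87) and for Hoxa10 (10.96 and 10.87), and in the right panel exposed mouse 1 stands highest for Hoxd11 (10.98).

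HOXC genes had differences of -0.15 to 0.23, with 5 higher and 4 lower. Hoxc13, which in the mouse is needed for hair and nails, had values of 5.71, 5.83, 5.68 and 5.84 in exposed mice 1 to 4, against 5.75, 5.50, 5.51 and 5.43 in sham mice 1 to 4. It was dim on every array, 2 exposed values lay above all sham values, and sham mouse 1 lay above exposed mice 1 and 3 (difference 0.22 ± 0.10, adjusted p = 0.838). Hoxc6 had values of 8.83, 9.27, 8.69 and 9.09 in exposed mice 1 to 4, against 8.73, 8.63, 8.68 and 8.93 in sham mice 1 to 4. Exposed mice 2 and 4 were highest and exposed mice 1 and 3 lay in the sham range (difference 0.23 ± 0.13, adjusted p = 0.838). The difference was 0.13 without exposed mouse 2 and 0.02 without exposed mice 2 and 4. Without exposed mouse 3 it was 0.32.

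Hoxc12 had values of 4.65, 4.52, 4.73 and 4.62 in exposed mice 1 to 4, against 4.70, 4.79, 4.81 and 4.68 in sham mice 1 to 4, with 3 exposed mice below all sham mice (difference -0.11 ± 0.08). Hoxc11 had values of 5.08, 4.97, 4.91 and 4.72 in exposed mice 1 to 4, against 4.85, 4.90, 5.43 and 5.09 in sham mice 1 to 4, with sham mouse 3 highest and the rest mixed (difference -0.15 ± 0.14). Without sham mouse 3 its difference was -0.03. Both genes lay below the array median of 7.08. Hoxc4, Hoxc5, Hoxc8 and Hoxc10 also had sham means below it (5.24 to 5.92), and Hoxc9 averaged 7.49 ± 0.18 in exposed and 7.44 ± 0.06 in sham mice. The differences of these 5 genes lay between -0.11 and 0.08.

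HOXB genes had differences of -0.13 to 0.10, with 4 higher and 5 lower. Hoxb2, Hoxb3, Hoxb5, Hoxb6, Hoxb7 and Hoxb8 all had sham means above the array median (7.93 to 8.90), with differences from -0.10 for Hoxb8 to 0.07 for Hoxb5. Hoxb7 was steady between mice (8.83 ± 0.06 in exposed and 8.90 ± 0.07 in sham mice). Hoxb6 varied more after exposure (7.86 ± 0.34 in exposed and 7.93 ± 0.14 in sham mice), with exposed mouse 3 at 8.35 and exposed mice 1, 2 and 4 at 7.58 to 7.76. Hoxb9 had values of 5.51, 5.24, 5.49 and 5.35 in exposed mice 1 to 4, against 5.37, 5.54, 5.62 and 5.57 in sham mice 1 to 4, with exposed mice 2 and 4 lowest of all (difference -0.13 ± 0.10, and -0.07 without exposed mouse 2). Hoxb1, a hindbrain gene, averaged 6.41 ± 0.15 in exposed and 6.31 ± 0.11 in sham mice, and Hoxb13, known for its part in the prostate, was dim (3.96 ± 0.15 in exposed and 3.94 ± 0.15 in sham mice).

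HOX proteins bind DNA together with cofactors of the TALE homeodomain class. Of 11 listed cofactors 10 were measured, with 4 higher and 6 lower means, a median difference of -0.06 (-0.001 over all genes) and 0 at an unadjusted p under 0.05 in limma (5.42% of all probe sets). Pknox2 had values of 9.17, 8.46, 8.68 and 8.28 in exposed mice 1 to 4, against 9.14, 9.14, 9.22 and 8.57 in sham mice 1 to 4, a difference of -0.37 ± 0.20. Sham mouse 4 lay among the exposed mice there and exposed mouse 1 among the sham mice. Meis1 averaged 10.87 ± 0.28 in exposed and 10.72 ± 0.11 in sham mice, with exposed mouse 2 highest. Pbx2 averaged 7.44 ± 0.21 in exposed and 7.64 ± 0.08 in sham mice, and Tgif1 averaged 8.86 ± 0.32 in exposed and 8.57 ± 0.26 in sham mice.

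Polycomb and trithorax proteins keep HOX clusters silent or active through histone methylation. Of 26 listed genes 24 were measured, with 12 higher and 12 lower means and a median difference of -0.004. At an unadjusted p under 0.05 in limma there were 2 (8.33%), both higher (2.91% of all probe sets were), and 0 passed adjustment. The groups did not overlap for Kdm6a and Ezh2, 8.33% of the 24, against 2.73% of all probe sets. Kdm6a, a demethylase that opposes Polycomb, had values of 10.73, 10.56, 10.50 and 10.61 in exposed mice 1 to 4, against 10.49, 10.32, 10.36 and 10.34 in sham mice 1 to 4, so that exposed mouse 3 lay next to sham mouse 1 and the groups did not overlap (difference 0.22 ± 0.09, adjusted p = 0.838). Ezh2, the Polycomb methyltransferase, was lower in every exposed mouse than in any sham mouse (8.69 ± 0.10 in exposed and 8.87 ± 0.03 in sham mice), and its relative Ezh1 was highest in exposed mice 2 and 4 at 10.57 and 10.46, with 9.65 and 9.86 in exposed mice 1 and 3 and 9.57 to 9.76 in sham mice. The 8 flanking and ParaHox genes, among them Evx1 and Cdx2, comprised 1 higher and 7 lower means with a median of -0.04. At an unadjusted p under 0.05 in limma there were 0 (5.42% of all probe sets). All 8 had sham means below the array median (5.01 to 7.03), that of Cdx2 the lowest. Differences were -0.29 ± 0.17 for the intestinal gene Cdx2 (-0.15 without sham mouse 1 and -0.16 without exposed mouse 1), 0.16 ± 0.12 for Evx1 and -0.10 ± 0.14 for the pancreatic gene Pdx1.

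Genes described as targets of HOXA10 or HOXA11 in uterine cells comprised 15 measured of 15 listed, 8 higher and 7 lower, with a median difference of 0.02. At an unadjusted p under 0.05 in limma there were 4 (26.7%), against 5.42% of all probe sets, and 0 passed adjustment. Of these 4, 2 were higher, where 2.91% of all probe sets were, and 2 were lower, where 2.5% were. Ptger4, a prostaglandin E receptor whose stromal expression is altered in Hoxa10 mutant mice, averaged 8.92 ± 0.29 in exposed and 8.41 ± 0.17 in sham mice. The cell cycle inhibitor Cdkn1b averaged 9.71 ± 0.33 in exposed and 9.19 ± 0.12 in sham mice. For these 2 of the 15 genes (13.3%) the groups did not overlap, against 2.73% of all probe sets. This list, like the others, was chosen with earlier results of these data known, so its shares are descriptions. The difference of Cdkn1b, 0.52, was 0.24 without exposed mice 2 and 4. Pla2g4a, the phospholipase that releases arachidonic acid, averaged 8.66 ± 0.26 in exposed and 9.04 ± 0.20 in sham mice, and Fkbp4, a cochaperone of the progesterone receptor, 9.64 ± 0.34 in exposed and 10.01 ± 0.10 in sham mice, and both overlapped. Itgb3 and Emx2, an integrin and a homeobox gene, differed by 0.16 ± 0.14 and 0.14 ± 0.16.

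Of 17 genes that pattern the Müllerian duct or carry steroid and retinoid signals to it, all measured, 10 had higher and 7 lower means (median 0.02), with 1 (5.88%) at an unadjusted p under 0.05 in limma, against 5.42% of all probe sets, the retinoic acid receptor Rarb (difference -0.37 ± 0.16, adjusted p = 0.838). Rarb had values of 7.37, 6.80, 6.96 and 6.95 in exposed mice 1 to 4, against 7.29, 7.18, 7.28 and 7.82 in sham mice 1 to 4, with sham mouse 4 highest and exposed mouse 1 among the sham mice. Wnt7a, which is needed to keep Hoxa10 and Hoxa11 expressed in the mouse uterus, averaged 7.61 ± 0.25 in exposed and 7.54 ± 0.28 in sham mice, with exposed mouse 2 and sham mouse 4 highest in their groups. Pgr and Esr1, the receptors of progesterone and oestrogen, were highest in exposed mouse 2 at 11.34 and 10.32, and their groups overlapped (10.42 to 11.34 in exposed and 10.29 to 10.78 in sham mice for Pgr, 9.79 to 10.32 in exposed and 9.72 to 9.92 in sham mice for Esr1).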

How the data were processed

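Uterine RNA of 8 mice, 4 exposed and 4 sham, was hybridised to 1 array each. The authors deposited 1 table of log2 values for 22206 probe sets. The scale is read from the values, and the sorted columns differ by at most 0.0198, so arrays had been brought to a common distribution. Per the submitters' processing notes, Partek was used; the sources used here do not give background correction or summarisation. Of the probe sets 19572 carry 1 gene symbol, 0 several and 2634 none; 0 of the 33 HOX symbols needed updating against RefSeq (GRCm38.p6), and for repeated symbols the probe set of highest mean was kept.

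Exposed minus sham was tested by lmFit and eBayes of limma 3.58.1 (R 4.3.3, no covariates), with p-values adjusted by Benjamini-Hochberg over all probe sets with a threshold of 0.05, after a test on simulated data. Correlations used exact two-sided permutation of the 8 mice. Values of each mouse are given for the posterior HOXA and HOXD genes Hoxa10, Hoxa11, Hoxa13, Hoxd9, Hoxd10 and Hoxd11, the 5 higher and 5 lower HOX genes of smallest p and those without overlap. From each pathway list the 3 members of smallest p are named, with Esr1, Pgr, Wnt7a, Emx2, Itgb3 and Meis1. Members, lists and alternatives were chosen with earlier results of these data known. Fkbp4 and the named marker genes were named after their values were seen, as were the settings that leave out a pair of exposed mice.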

Additional observations from a re-analysis of the deposited data

Results flagged for a closer look

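In 7 of 108 groups of 4 mice, 1 mouse stood apart by Dixon's criterion, 3 of them among the 66 groups of HOX genes; chance gives about 1 in 20. Exposed mouse 1 stood at 10.982 for Hoxd11, above the other exposed mice (10.423 to 10.509). Sham mouse 4 stood at 7.081 for Hoxa3 (other sham mice 6.763 to 6.814). Sham mouse 1 stood at 6.136 for Hoxb1 (6.362 to 6.365). Exposed mouse 2 stood at 8.852 for Hoxa11os (other exposed mice 9.449 to 9.558), and sham mouse 3 stood at 9.686 for the same RNA (other sham mice 9.288 to 9.340). Sham mouse 4 stood at 10.886 for Meis1 (10.660 to 10.682) and at 8.575 for Pknox2 (9.136 to 9.223).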

How the results depend on the processing

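The number of HOX genes past an adjusted p of 0.05 in limma was 0 in every setting run. At an unadjusted p under 0.05 in limma the main count was 4 of 33. Among probe sets at or above the 50th percentile it was 1 of 15 (6.67%), against 7.17% of all probe sets there. Hoxa3, Hoxa6 and Hoxc13 fell below that cut and were not tested. With the replicate number as a block the count was 1 of 33, where 1274 of 22206 probe sets passed. It was 2 (6.06%) without exposed mice 1 and 2 (8.78% of all probe sets) and 1 (3.03%) without exposed mice 2 and 4 (3.98%). When each mouse was left out it was 1 to 5 (3.27% to 11.5% of all probe sets). Hoxa6 was among the genes counted in every fit in which it was tested. Same-numbered mice did not deviate together (r from -0.238 to 0.085). The count of genes without overlap, 1 of 33, was 0 of 15 at the 50th percentile, where Hoxa6 was not tested (3.41% of all probe sets there). It was 5 (15.2%) without exposed mice 1 and 2 (17.7% of all probe sets) and 4 (12.1%) without exposed mice 2 and 4 (12.2%). When each mouse was left out it was 1 to 5 (4.58% to 10.2%). The median difference ran from -0.03 to 0.02 when each mouse was left out. Signs turned without exposed mice 2 and 4 for 9 of the 33 HOX genes, Hoxa13 (0.044), Hoxb2 (-0.076), Hoxb6 (0.116), Hoxb8 (0.038), Hoxc4 (0.056), Hoxc9 (-0.086), Hoxd10 (-0.066), Hoxd11 (0.040) and Hoxd13 (0.036), and for Hoxa11os (0.091), Emx2 (-0.091), Evx1 (-0.014), Meis1 (-0.063) and Wnt7a (-0.028), and without exposed mice 1 and 2 for 7 HOX genes, Hoxb6 (0.120), Hoxb13 (-0.025), Hoxc5 (-0.032), Hoxd8 (-0.012), Hoxd10 (-0.138), Hoxd12 (0.029) and Hoxd13 (0.008), and for Hoxa11os (0.047), Hoxd3os1 (-0.127), Pdx1 (0.059) and Wnt7a (-0.022). Array weights turned Hoxb2 to -0.010, Hoxc4 to 0.030 and Hoxd10 to -0.036. When each mouse was left out, 2 to 5 HOX genes turned sign, and differences ran, among others, from -0.154 to 0.023 for Hoxa13, -0.058 to 0.116 for Hoxd10, -0.225 to -0.039 for Hoxd11, -0.156 to 0.080 for Hoxa11os, -0.034 to 0.101 for Hoxd3os1, 0.016 to 0.246 for Emx2, 0.044 to 0.225 for Evx1, 0.016 to 0.221 for Meis1, -0.209 to -0.012 for Pdx1 and -0.047 to 0.186 for Wnt7a. Correlations turned to -0.042 on deviations from the group means for Hoxa11 and Hoxa13, and without the 2 mice farthest from the median to -0.156 for Hoxc10 and Hoxc11, -0.352 for Hoxc11 and Hoxc12, -0.416 for Hoxd10 and Hoxd11 and -0.130 for Hoxd11 and Hoxd12. The cause was not tested. The number of arrays, 4 per group, limits the precision, and dim probe sets such as Hoxb13 and Hoxd13 lie near the low end of the scale.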
